A study of Bos grunniens with 9 samples.

Results

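Cholesterol synthesis genes, together with the genes of the SREBP system that controls them, were followed in ribosome footprints of yak (Bos grunniens) ovaries. The group holds 28 genes of the 21652 in the deposited tables: 19 enzymes of the path from acetyl-CoA to cholesterol, 7 genes of the SREBP machinery, and 2 further SREBP targets, STARD4 and FASN. Members were found by gene symbol, and FDPS, the only symbol among them carried by more than 1 identifier, was read at the identifier with the highest mean count. Its other identifier held 0 to 7 counts per library. Footprints are the pieces of mRNA left by RNase where a ribosome sat, so their count on a gene depends on its mRNA abundance as well as on ribosome load per transcript. Ovaries of 6-year-old yaks were taken at 3 reproductive stages, each in a month of its own: April for anestrus, the season without cycles, August for estrus and December for pregnancy. Each stage has 3 biological replicates, 9 libraries in all, from ovarian tissue collected within 60 min of euthanasia and frozen, and the labels name no treatment or sorting of cells. The labels call the ovary ipsilateral without saying to what, and they speak of 3 yaks without tying a replicate to an animal, so the p-values here measure the spread between these samples. Stage cannot be told apart from season, and with no RNA-seq of these ovaries used here, mRNA amount and translation cannot be told apart either.

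Cholesterol is built from acetyl-CoA through mevalonate, isoprenoids, squalene and lanosterol, and in the ovary it is the precursor of progesterone, androgens and estrogens. SREBPs are membrane-bound transcription factors of the endoplasmic reticulum. When sterols run low the escort protein SCAP carries them to the Golgi, where a pair of proteases releases the part that enters the nucleus and switches on these enzymes, and when sterols are plentiful INSIG proteins hold SCAP and SREBP back. The roles given for each gene are those known from other mammals.

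Libraries held 1.47 to 28.94 M counts (M, 1e6), and the 3 anestrus libraries were the deepest 3, so depth moved with stage. In CPM, counts per 1e6 counts of a library, the floor of 3 counts ran from 0.104 in anestrus replicate 2 to 2.04 in pregnancy replicate 3, the shallowest library. All 28 genes passed the filter on low counts that left 13936 genes for testing, and the lowest count of any of them in a library was 11. Markers of the ovary were present in each library: FOXL2, a granulosa cell factor, lay between 29.8 and 94.3 CPM, and CYP17A1, the theca enzyme of androgen synthesis, between 24.7 and 2608.2 CPM. Not a gene in the data passed an adjusted p of 0.05 in edgeR's quasi-likelihood test of any comparison of stages, so every difference below is given as a measured value and none as a call.

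Levels between genes were compared per gene length, as the deposited FPKM (fragments per kilobase of gene and per 1e6 counts of the library). MSMO1 (ENSBTAG00000003068), a methyl sterol oxidase that works on lanosterol's product, had the highest mean of the 28, 191 ± 99.2 FPKM (SD, n = 9), at percentile 94.6 of the tested genes. IDI1 (ENSBTAG00000004075), the isomerase of isopentenyl diphosphate, followed at 115 ± 54.8 FPKM, HMGCS1 (ENSBTAG00000011839), which makes HMG-CoA, at 84.5 ± 42.8 FPKM and FDFT1 (ENSBTAG00000012432), squalene synthase, at 77.1 ± 30.2 FPKM. Neighbours in the order do not differ beyond these SD, which include differences between stages. Read within libraries, IDI1 stood above HMGCS1 in every library, and MSMO1 above IDI1 in all but anestrus replicate 2. HMGCS1 and FDFT1 changed places between libraries. At the low end stood GGPS1 (ENSBTAG00000013068), whose product geranylgeranyl diphosphate leaves the path for protein prenylation, at 8.10 ± 1.86 FPKM, TM7SF2 (ENSBTAG00000005069), a sterol reductase, at 10.5 ± 7.52 FPKM and MVK (ENSBTAG00000005183), mevalonate kinase, at 10.9 ± 4.40 FPKM. This order differed by stage, since in the anestrus libraries TM7SF2 at 2.59 to 5.24 FPKM and MVK at 5.59 to 6.81 FPKM stood below GGPS1 at 8.85 to 10.34 FPKM, and GGPS1 had the lowest mean only in estrus and pregnancy. The machinery genes lay closer together than the enzymes, from 23.4 ± 3.43 FPKM for MBTPS2 to 57.0 ± 15.2 FPKM for INSIG2.

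**Figure D1:**
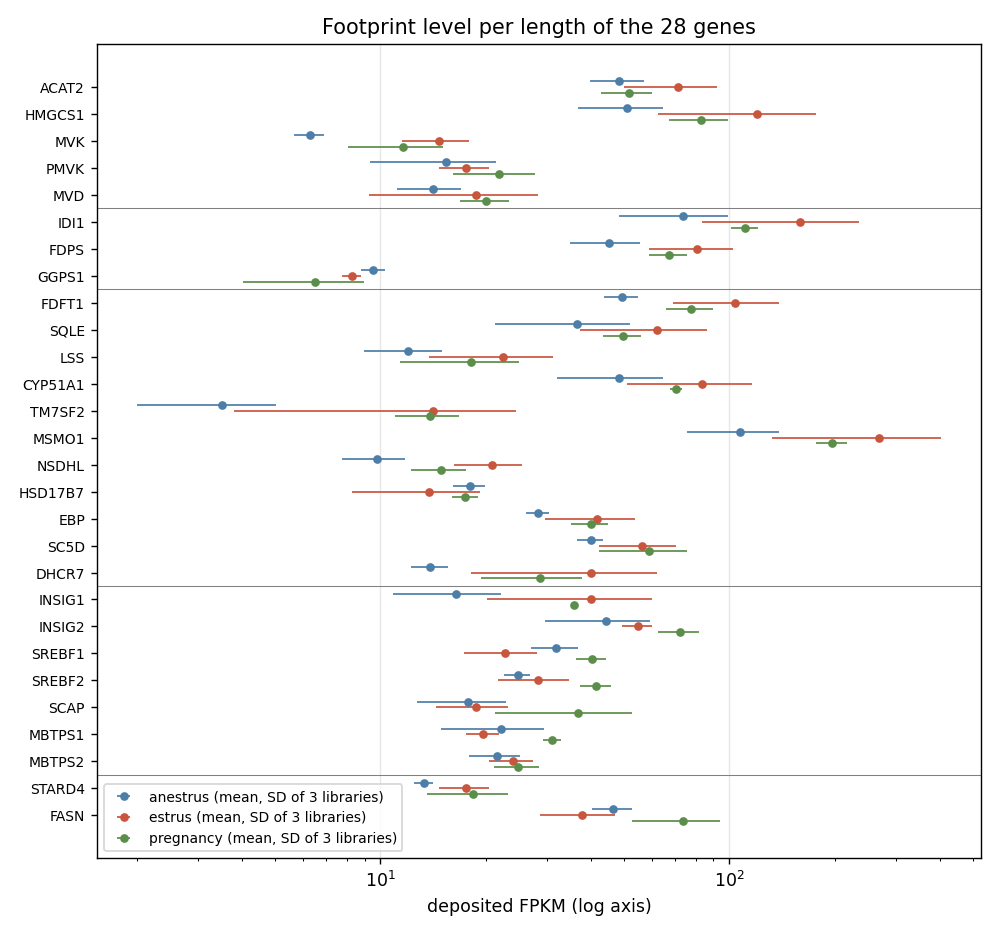
Deposited FPKM (log axis) of the 28 genes in order of role, with a point for the mean and a bar for the SD of the 3 libraries of each stage. MSMO1 is highest, GGPS1 lowest on average over the 9 libraries but not in anestrus, and the estrus points (red) of most sterol enzymes lie to the right of the anestrus points (blue) with the widest bars.

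Estrus was set against anestrus to ask which steps of the path carry more footprints in the cycling ovary than in the resting one. Of the 19 enzymes, 17 had a positive log2 fold change, with a median of 0.77, and the largest were TM7SF2 at 3.88-fold, DHCR7 at 2.79-fold, MSMO1 at 2.42-fold and HMGCS1 at 2.26-fold. GGPS1 and HSD17B7 were the exceptions, at log2 fold changes of -0.25 and -0.44. The 7 machinery genes had a median of 0.13, and INSIG1 alone among them stood above 2-fold, at 2.29-fold. Over all 28 genes 23 values were positive with a median of 0.53, beside 49.2% positive and a median of -0.01 over all 13936 genes tested.

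None of the 28 passed edgeR's adjusted test (0% of all genes were called), with adjusted p from 0.704 to 0.985. By unadjusted p under 0.05 the count was 10 with a positive and 1 with a negative fold change, 11 of 28, where 7.04% of all tested genes had such a p. All 3 estrus libraries lay above all 3 anestrus libraries for 4 members, MVK, FDFT1, LSS and NSDHL, beside 5.22% of all genes, and below for 1 member, GGPS1, beside 6.42%. With CPM scaled by library size alone FDPS and STARD4 joined those above, 6 members beside 4.76% of all genes, and GGPS1 was again the 1 below, beside 5.64%. DESeq2 called 0.108% of its genes and no member, MVK coming nearest at an adjusted p of 0.0815, and the authors' deposited table had calls for 0.143% of genes and for no member, with an FDR of 0.0635 for MVK. In bulk tissue, fewer cells of a type cannot be told apart from fewer footprints per cell.

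The early mevalonate steps started at ACAT2 (ENSBTAG00000002827), the thiolase that makes acetoacetyl-CoA, with 54.1, 79.7 and 51.4 CPM in anestrus replicates 1 to 3 and 98.0, 108.1 and 58.5 CPM in estrus, a log2 fold change of 0.51 ± 0.28 (SE), the quantity that stands in parentheses after the levels of the other genes. HMGCS1, the next step, had 64.3, 120.6 and 71.3 CPM in anestrus and 254.3, 233.0 and 91.1 CPM in estrus (1.17 ± 0.39). For both genes estrus replicates 1 and 2 stood above every anestrus library, and estrus replicate 3 lay inside the anestrus range. MVK was at 7.9, 7.7 and 7.7 CPM in anestrus, nearly the same in each library, and at 20.7, 17.1 and 14.3 CPM in estrus (1.16 ± 0.27). Here the stages did not overlap, and its unadjusted p was the smallest of the 28 in this comparison. PMVK, phosphomevalonate kinase, lay at 6.8 to 12.8 CPM in anestrus and 8.6 to 13.5 CPM in estrus (0.21 ± 0.30), overlapping. MVD, the decarboxylase that yields isopentenyl diphosphate, had its lowest library of all 9 in estrus replicate 3, at 9.9 CPM, beside 29.7 and 30.9 CPM in the other estrus libraries and 13.7 to 23.5 CPM in anestrus (0.37 ± 0.39).

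Among the isoprenoid steps, IDI1 had 44.7, 101.7 and 61.9 CPM in anestrus and 176.6, 190.6 and 66.1 CPM in estrus (1.06 ± 0.40). FDPS (ENSBTAG00000003948), which makes farnesyl diphosphate, the last isoprenoid before squalene, had 44.6, 71.6 and 41.4 CPM against 108.8, 92.8 and 67.4 CPM (0.77 ± 0.27). In each of these genes estrus replicate 3 was the low library of its stage, and it lay between anestrus values. GGPS1, the branch away from sterols, showed none of this: 8.9, 11.0 and 8.0 CPM in anestrus and 7.8, 7.7 and 7.9 CPM in estrus, -0.25 ± 0.31. The estrus values lay just under the anestrus ones, without overlap but with an interval of -0.93 to 0.43.

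Of the squalene and sterol steps 10 of 11 had a positive log2 fold change, with a median of 0.81 and a range of -0.44 to 1.96. FDFT1, which joins farnesyl units into squalene, had 56.4, 78.3 and 63.9 CPM in anestrus and 158.8, 163.2 and 84.5 CPM in estrus (1.03 ± 0.28), with no overlap. SQLE, squalene epoxidase, had 54.1, 108.0 and 42.9 CPM against 133.5, 134.8 and 60.7 CPM (0.68 ± 0.38). LSS, which closes the rings of lanosterol, had 19.1, 35.4 and 27.7 CPM against 35.9, 72.4 and 35.6 CPM (0.81 ± 0.39). SQLE overlapped through anestrus replicate 2 and estrus replicate 3, and LSS avoided overlap narrowly, its lowest estrus library at 35.6 CPM beside a highest anestrus library at 35.4 CPM. CYP51A1, lanosterol demethylase, lay at 52.0 to 117.1 CPM in anestrus and at 143.7, 174.8 and 72.8 CPM in estrus (0.72 ± 0.35).

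TM7SF2, a reductase that follows CYP51A1, had 6.9, 4.0 and 3.2 CPM in anestrus and 29.6, 20.2 and 4.7 CPM in estrus, the widest fold of the group at 1.96 ± 0.55. Its estrus libraries differed 6.27-fold among themselves, and estrus replicate 3 sat inside the anestrus range. MSMO1, NSDHL and HSD17B7 act in one chain that strips methyl groups from the sterol ring, and their values differed in sign. MSMO1 had 132.8, 98.6 and 74.2 CPM in anestrus and 340.8, 284.1 and 114.0 CPM in estrus (1.27 ± 0.36). NSDHL (ENSBTAG00000009231) had 9.5, 15.1 and 9.4 CPM against 25.7, 26.8 and 17.7 CPM (1.04 ± 0.27), with every estrus library above. HSD17B7 (ENSBTAG00000005976) had 18.7, 23.6 and 16.3 CPM against 17.7, 17.7 and 7.8 CPM, a value of -0.44 ± 0.31 whose interval ran from -1.12 to 0.25. Of these genes, HSD17B7 was the only sterol step with a higher mean in anestrus than in estrus.

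The last steps gave smaller values for EBP and SC5D than for DHCR7. EBP, a sterol isomerase, lay at 20.4 to 21.9 CPM in anestrus and at 30.2, 40.7 and 21.2 CPM in estrus (0.54 ± 0.25). SC5D, a sterol desaturase, lay at 35.4 to 50.3 CPM and at 65.1, 64.1 and 40.1 CPM (0.40 ± 0.25). DHCR7 (ENSBTAG00000016465), a reductase of the closing step, had 18.6, 26.2 and 18.9 CPM in anestrus against 75.8, 79.6 and 22.3 CPM in estrus (1.48 ± 0.44). Estrus replicates 1 and 2 stood far above anestrus for DHCR7, while replicate 3 lay within the anestrus range, as it did for EBP and SC5D.

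In the machinery, INSIG1 (ENSBTAG00000001592), the anchor whose own gene is a known SREBP target, had 13.0, 22.5 and 9.9 CPM in anestrus and 46.5, 41.8 and 15.8 CPM in estrus (1.19 ± 0.40), the same high, high and low set of libraries as in the enzymes. Its relative INSIG2 lay at 23.9 to 42.7 CPM and 35.1 to 44.0 CPM (0.28 ± 0.24). SREBF1 (ENSBTAG00000007884), whose product favours fatty acid genes, went the other way in its means, with 94.2, 143.2 and 110.8 CPM in anestrus and 80.6, 61.9 and 95.9 CPM in estrus (-0.55 ± 0.23). SREBF2 (ENSBTAG00000014265), whose product favours cholesterol genes, stood at 90.8, 87.9 and 87.0 CPM and at 117.6, 88.4 and 88.5 CPM (0.15 ± 0.18), so that only estrus replicate 1 was apart. The escort SCAP was at 0.05 ± 0.36, and the proteases MBTPS1 and MBTPS2 were at -0.20 ± 0.22 and 0.13 ± 0.20. Of the further targets, STARD4, which carries cholesterol between membranes, had 0.37 ± 0.27 and FASN, fatty acid synthase, -0.35 ± 0.29, both with overlapping libraries.

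**Figure D2:**
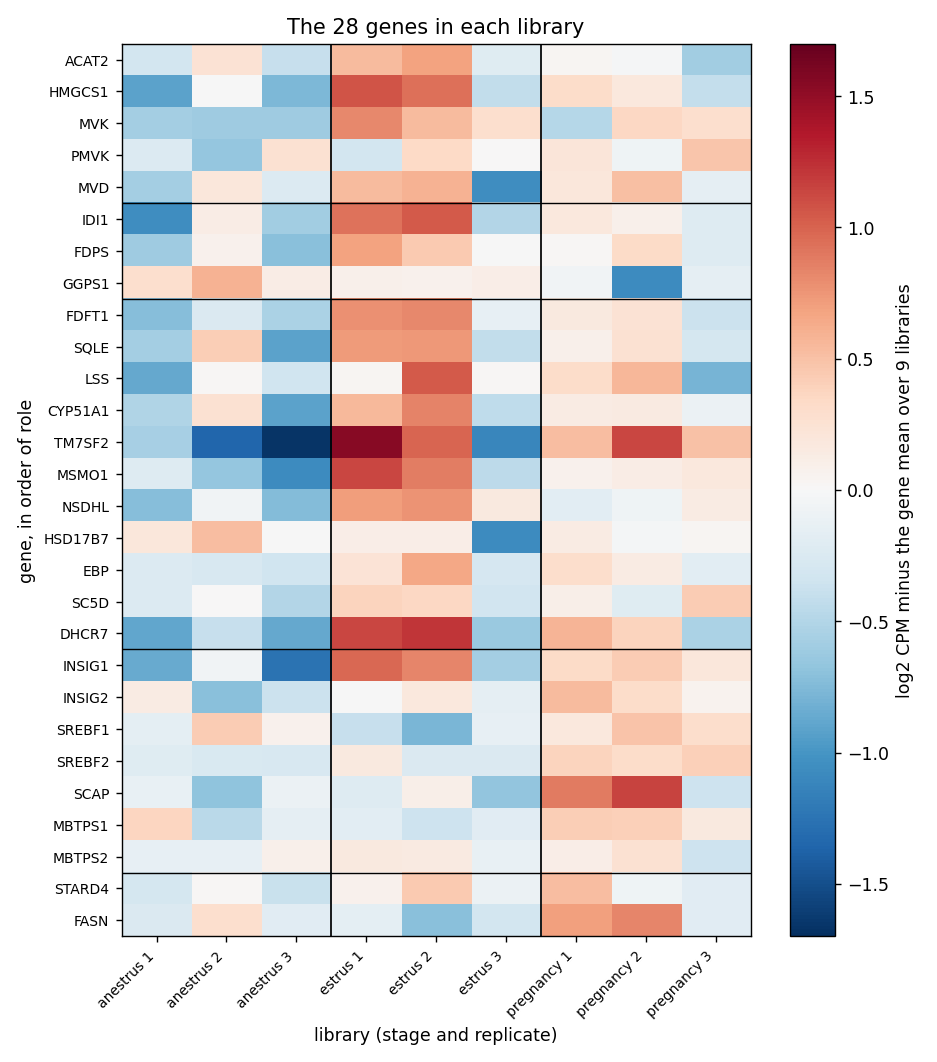
Log2 CPM of each gene minus its mean over the 9 libraries, genes in order of role from ACAT2 (top) to FASN (bottom) and libraries by stage. Estrus replicates 1 and 2 are red across most enzymes and INSIG1 while estrus replicate 3 is pale or blue. The SREBP machinery, INSIG1 included, is mostly red in pregnancy, with SCAP and MBTPS2 below their means in pregnancy replicate 3.

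Within estrus, replicate 3 lay below the other libraries for most enzymes. It was the lowest of its stage for 17 of 19 enzymes (89.5%), including 11 of 11 squalene and sterol genes, where it was lowest for 37.4% of all tested genes. The median SD of log2 CPM within estrus was 0.59 over the enzymes, 0.24 over the machinery and 0.36 over all genes. Summed over the 19 enzymes, levels were 697, 1000 and 636 CPM in anestrus, 1760, 1770 and 808 CPM in estrus, and 1130, 1150 and 916 CPM in pregnancy. The mean sum was 1450 ± 554 CPM in estrus against 778 ± 195 CPM in anestrus (SD, n = 3 per stage), with estrus replicates 1 and 2 above every anestrus library and estrus replicate 3 within the anestrus range. The median log2 fold change of the enzymes was 0.98 without estrus replicate 3 and 0.50 without estrus replicate 2, and 17 of 19 were positive in each alternative run. For the 28 genes the median was 0.32 without estrus replicate 2 and 0.86 with log2 library size as a covariate.

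Summed markers of steroid-making cells were low in the same estrus library as the enzymes, though not every marker followed its sum. Estrus replicate 3 was not the lowest estrus library for INHBA, CYP19A1, BMPR1B, PTCH1, GLI1 and TSPO. In estrus replicates 1 to 3 INHBA had 1744.3, 209.4 and 655.8 CPM, and TSPO 28.7, 38.9 and 50.9 CPM. The summed level of 14 granulosa markers was 12100, 10000 and 3390 CPM in estrus replicates 1 to 3, beside 2650 to 7480 CPM in anestrus and 2530 to 9470 CPM in pregnancy. The 6 theca markers summed to 2120, 2430 and 584 CPM in estrus, beside 204 to 1610 CPM in anestrus and 899 to 4980 CPM in pregnancy. For 8 luteal and steroidogenic markers the sums were 760, 757 and 313 CPM in estrus, 389 to 594 CPM in anestrus and 643 to 1460 CPM in pregnancy. Log2 fold changes from anestrus to estrus were positive for 13 of 14 granulosa, 6 of 6 theca and 5 of 8 luteal markers, with medians of 0.99, 0.76 and 0.23. None of these markers was at 0 in every library, no marker passed the adjusted test, and their part in the enzymes' values was not tested. Anestrus replicate 2 showed the reverse pairing, the highest enzyme sum of its stage beside the lowest granulosa and theca sums. Adipocyte markers, which could accompany lipid genes, summed to 316 to 601 CPM in anestrus and 434 to 751 CPM in estrus. Most of each sum was LPL, at 303.0 to 589.8 CPM in anestrus and 427.9 to 708.2 CPM in estrus. FABP4 was present in each of these libraries, at 9.2, 43.6 and 12.2 CPM in anestrus and 17.7, 39.6 and 4.4 CPM in estrus. PLIN1 lay at 0.8 to 1.1 CPM in both stages, and LEP was at 0 throughout.

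**Figure D3:**
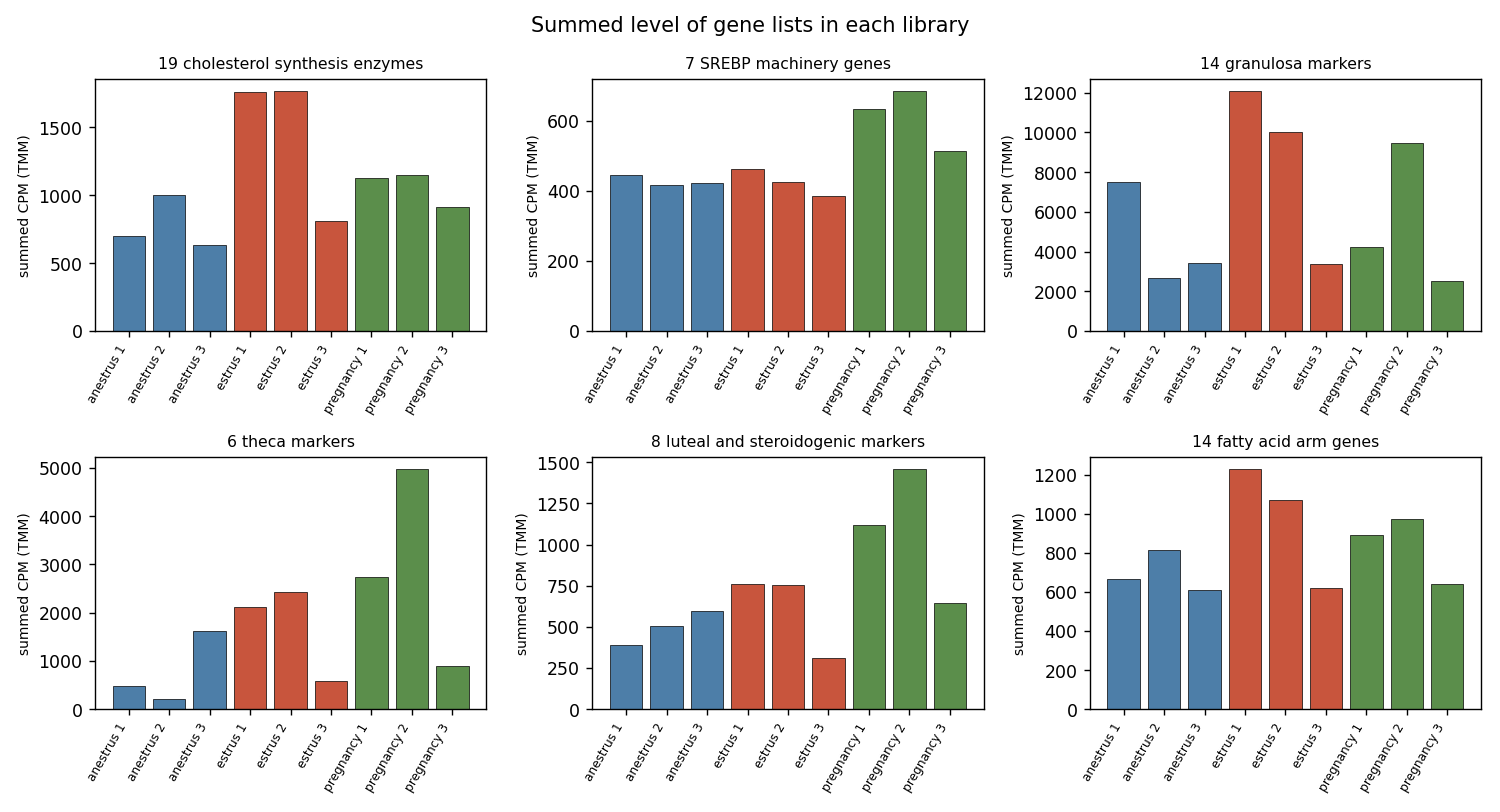
Summed CPM in each library, from a base of 0, for the 19 enzymes, the 7 machinery genes and 4 other lists, with bars coloured by stage. The enzyme sum is highest in estrus replicates 1 and 2 at 1760 and 1770 CPM, the machinery sum in pregnancy replicates 1 and 2 at 635 and 686 CPM, and the granulosa, theca and luteal sums are low in estrus replicate 3.

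Pregnancy was set against estrus to ask whether the path stays at its estrus level once a pregnancy is carried. The enzymes and the machinery stood on opposite sides: 16 of 19 enzymes had a negative log2 fold change, with a median of -0.40, and 5 of 7 machinery genes a positive one, with a median of 0.46. NSDHL had the lowest value of the 28, -0.62 ± 0.28, and SCAP the highest, 0.93 ± 0.36. Over the 28 genes 9 values were positive with a median of -0.19, beside 50.6% and 0.01 over all genes. Cell type markers also stood on both sides in this comparison: 10 of 14 granulosa markers were negative (median -0.46), while 6 of 6 theca markers (median 0.54) and 7 of 8 luteal markers (median 0.69) were positive, and their part in the values of the members was not tested.

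No member was called by edgeR (0% of all genes), with adjusted p from 0.656 to 0.994. Unadjusted p was under 0.05 for 5 members with a positive value and 1 with a negative value, beside 7.43% of all genes. All pregnancy libraries lay above all estrus libraries for SREBF1, SREBF2 and MBTPS1, beside 7.05% of all genes, and below for GGPS1 and NSDHL, beside 6.59%. By library size alone INSIG2 and FASN joined those above, 5 members beside 9.96% of all genes, and no member lay below, beside 4.33%. DESeq2 called 0.213% of its genes and the authors' deposited table had calls for 0.106%, with no member in either. Leaving out estrus replicate 2 took the median of the 28 from -0.19 to 0.01 and the positive values from 9 to 15, and leaving out estrus replicate 3 took the median to -0.47. The enzyme median was -0.61 without estrus replicate 3, with 1 enzyme positive, and -0.27 without estrus replicate 2, with 7 positive. With log2 library size as a covariate 14 of the 28 and 5 enzymes were positive.

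SREBF1 had 119.6, 148.1 and 130.0 CPM in pregnancy, every library above the estrus range of 61.9 to 95.9 CPM, with a log2 fold change of 0.74 ± 0.23. SREBF2 had 136.7, 130.2 and 138.9 CPM, a spread of 4.51 CPM (SD) around 135 CPM, against 98.2 ± 16.8 CPM in estrus (0.46 ± 0.18). MBTPS1, the protease that makes the first cut of SREBP, had 97.6, 96.5 and 81.7 CPM against 64.5, 57.3 and 63.7 CPM in estrus (0.58 ± 0.22). These machinery genes were separated from estrus in all 9 pairs of libraries. SCAP had 154.2, 185.3 and 65.0 CPM against 71.7, 89.3 and 52.4 CPM in estrus, so pregnancy replicates 1 and 2 were high and replicate 3 was not. MBTPS2, the protease of the second cut, was at -0.02 ± 0.21 and INSIG2 at 0.31 ± 0.24. FASN had 598.7, 656.0 and 323.7 CPM against 330.2, 225.3 and 299.0 CPM (0.89 ± 0.30), again with pregnancy replicate 3 among the estrus values.

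NSDHL, at 13.9, 15.0 and 17.3 CPM in pregnancy, lay narrowly below its estrus libraries of 17.7 to 26.8 CPM. GGPS1 was at 7.0, 3.5 and 6.6 CPM, under the estrus libraries of 7.7 to 7.9 CPM, with -0.47 ± 0.33. Other enzymes with values near -0.5 overlapped with estrus only through estrus replicate 3: HMGCS1 at -0.60 ± 0.39, IDI1 at -0.61 ± 0.40, ACAT2 at -0.55 ± 0.28, FDFT1 at -0.50 ± 0.28 and MVK at -0.49 ± 0.28. MSMO1 and DHCR7 were both at -0.54, with SE of 0.36 and 0.44. Near 0 lay TM7SF2 at -0.08 ± 0.54 and MVD at 0.02 ± 0.40, as well as SC5D at -0.05 ± 0.25 and STARD4 at -0.02 ± 0.28, and of these SC5D and STARD4, like MBTPS2, had a positive sign when CPM were scaled by library size alone. Under that scaling the median log2 fold change of all genes was 0.103 in this comparison and 0.129 in pregnancy versus anestrus, and its values are read against those medians.

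**Figure D4:**
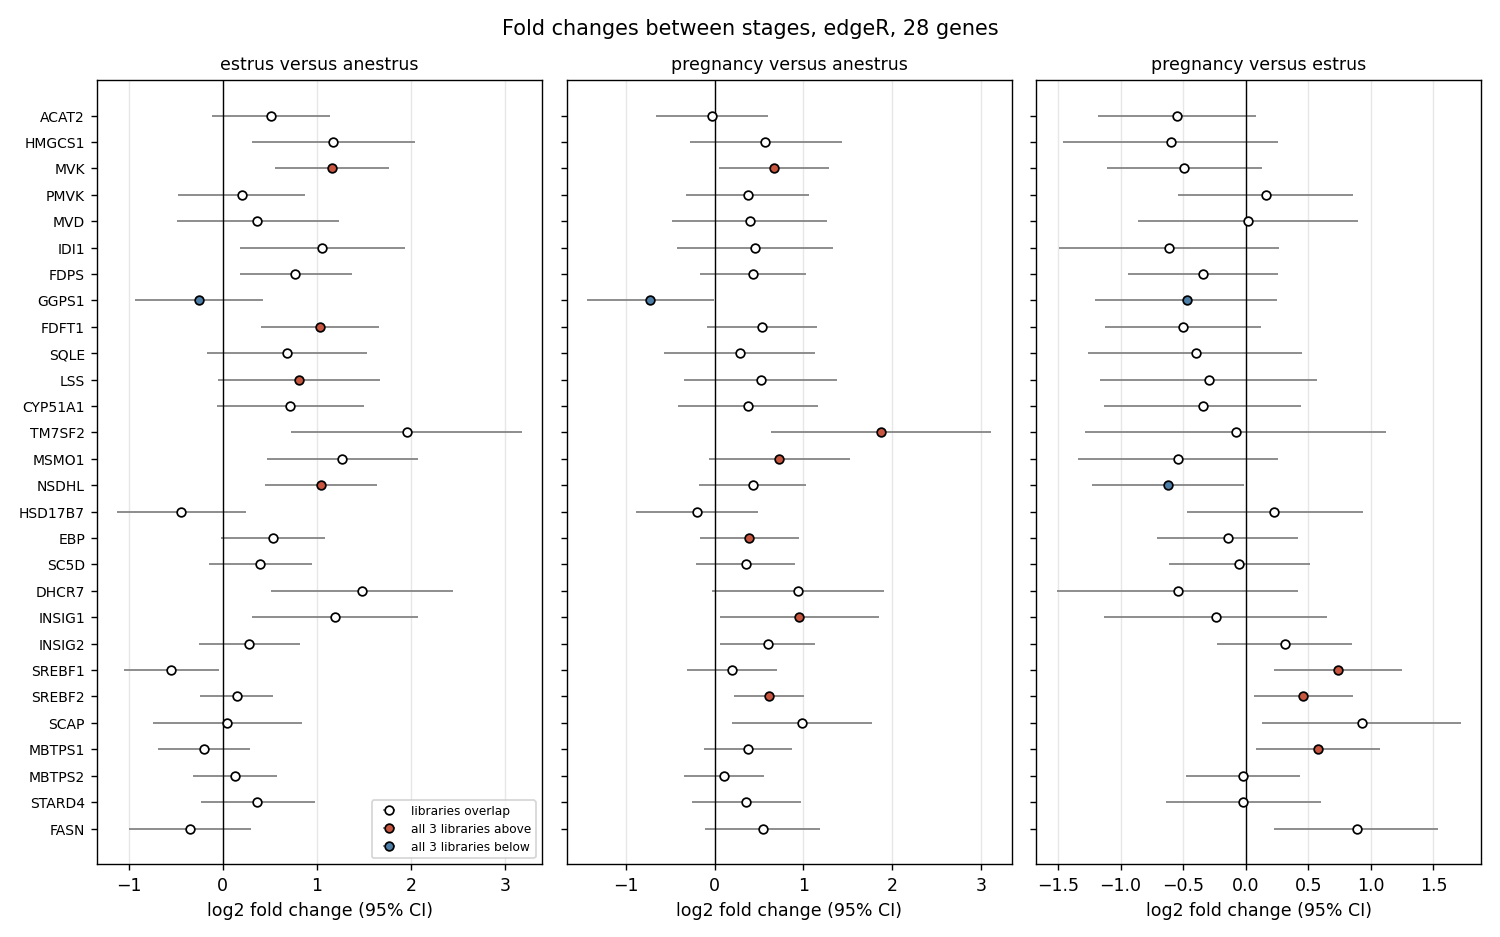
Log2 fold changes with 95% confidence intervals from edgeR for the 28 genes in 3 comparisons, filled red where all 3 libraries of the first stage lay above all 3 of the second and blue where all lay below. Estrus versus anestrus has most enzymes right of 0, and pregnancy versus estrus has most enzymes left of 0 and most machinery genes right of it.

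Pregnancy versus anestrus shares its libraries with the other comparisons and is not independent of them. Of the 28 genes 25 had a positive log2 fold change, with a median of 0.43, beside 50.1% and 0.00 over all genes. The enzymes had a median of 0.43 with 16 of 19 positive, and the machinery 0.60 with 7 of 7 positive. TM7SF2, at 3.67-fold, stood furthest, then SCAP at 1.97-fold, INSIG1 at 1.94-fold and DHCR7 at 1.91-fold. GGPS1 was lowest at -0.73 ± 0.32, with HSD17B7 at -0.20 ± 0.31 and ACAT2 at -0.03 ± 0.28, the sign of ACAT2 turning to positive by library size alone (0.11) and by upper quartile factors (0.01).

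By edgeR no member was called (0% of all genes), with adjusted p from 0.718 to 0.979. Unadjusted p was under 0.05 for 6 positive members and 1 negative one, beside 6.82% of all genes. In 6 members, MVK, TM7SF2, MSMO1, EBP, INSIG1 and SREBF2, all pregnancy libraries lay above all anestrus libraries, beside 5.88% of all genes, and in GGPS1 all lay below, beside 6.91%. By library size alone 16 members lay above, where 9.18% of all genes did, and 1 below, where 3.67% did. DESeq2 called 0.22% of its genes and no member. The authors' deposited table called 0.166% of genes and 1 member, TM7SF2, with a log2 fold change of 1.99 and an FDR of 0.00893. Without anestrus replicate 2 the enzyme median was 0.69 and that of the 28 was 0.66, and with log2 library size as a covariate they were 0.91 and 0.87.

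TM7SF2 stood at 14.6, 22.3 and 14.3 CPM in pregnancy against at most 6.9 CPM in anestrus, with an edgeR log2 fold change of 1.87 ± 0.56. MSMO1 had 163.5, 169.4 and 175.3 CPM (0.73 ± 0.36), the smallest spread relative to its level of any stage of this gene, above the anestrus maximum of 132.8 CPM. MVK, at 8.4, 15.0 and 14.3 CPM (0.67 ± 0.28), cleared its flat anestrus level by little in pregnancy replicate 1. INSIG1 had 29.5, 31.7 and 26.8 CPM (0.95 ± 0.40), each above the anestrus maximum of 22.5 CPM. SREBF2 reached 0.61 ± 0.18, the smallest SE of the non-overlapping members, with anestrus libraries at 87.0 to 90.8 CPM. GGPS1 was the only member whose pregnancy libraries all lay below both other stages. Its lowest library was pregnancy replicate 2 at 3.5 CPM, from 17 counts. Pregnancy replicate 3 held 11 counts of GGPS1, and by library size alone its pregnancy libraries did not all lie below estrus. EBP, at 31.6, 28.4 and 22.7 CPM, passed above an anestrus range of 20.4 to 21.9 CPM with 0.39 ± 0.25. DHCR7 at 51.6, 44.7 and 23.8 CPM (0.94 ± 0.44) and HMGCS1 at 150.6, 137.3 and 91.8 CPM (0.57 ± 0.39) overlapped with anestrus through pregnancy replicate 3.

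SCAP, at 154.2 and 185.3 CPM in pregnancy replicates 1 and 2, stood above its anestrus libraries of 76.5, 52.0 and 78.1 CPM, and at 65.0 CPM in replicate 3 it lay among them (0.98 ± 0.36). INSIG2 had 56.6, 48.4 and 40.5 CPM against 42.7, 23.9 and 30.3 CPM, with overlap through pregnancy replicate 3 and anestrus replicate 1 (0.60 ± 0.24). MBTPS1 overlapped through anestrus replicate 1, at 94.1 CPM beside 53.2 and 65.6 CPM in the other anestrus libraries (0.38 ± 0.22). Of the machinery, these genes thus had most or all pregnancy libraries at the upper end. SREBF1 at 0.19 ± 0.23 and MBTPS2 at 0.10 ± 0.20 had wide overlap, MBTPS2 ranging over 34.3 to 40.3 CPM in anestrus and 29.8 to 45.5 CPM in pregnancy. FASN, with 313.0, 452.8 and 324.2 CPM in anestrus, was exceeded by pregnancy replicates 1 and 2 and not by replicate 3 (0.54 ± 0.29).

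Other enzymes gave log2 fold changes of 0.28 to 0.53 against anestrus with overlapping libraries. FDFT1 had 104.2, 109.9 and 72.1 CPM (0.53 ± 0.28), with pregnancy replicates 1 and 2 above every anestrus library. IDI1 had 104.8, 98.7 and 79.9 CPM (0.45 ± 0.40) and FDPS 68.8, 84.7 and 58.4 CPM (0.43 ± 0.27), spreads narrower than in estrus. LSS ranged over 20.3 to 51.6 CPM (0.52 ± 0.39), SQLE over 65.6 to 96.7 CPM (0.28 ± 0.39) and CYP51A1 over 91.2 to 108.5 CPM (0.37 ± 0.35). NSDHL was at 0.43 ± 0.27, MVD at 0.40 ± 0.40, PMVK at 0.37 ± 0.31 and SC5D at 0.35 ± 0.25. STARD4, a further SREBP target and not an enzyme of the path, was at 0.35 ± 0.28. It had 10.1 to 16.6 CPM in pregnancy and 8.9 to 11.7 CPM in anestrus.

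The machinery sum was 635, 686 and 513 CPM in pregnancy, above the 417 to 446 CPM of anestrus and the 386 to 462 CPM of estrus in each library. Its mean was 611 ± 88.9 CPM, with n = 3, while anestrus had 428 ± 15.2 CPM and estrus 424 ± 37.9 CPM. Pregnancy replicate 3, the shallowest library, was the lowest of its stage for 19 of 28 members (67.9%), where it was lowest for 43.0% of all genes. Theca markers were positive in 6 of 6 and luteal markers in 7 of 8 against anestrus, with medians of 1.39 and 1.08, and pregnancy replicate 3 was lowest of its stage in both sums, at 899 and 643 CPM. Their part in the values of pregnancy was not tested.

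**Figure D5:**
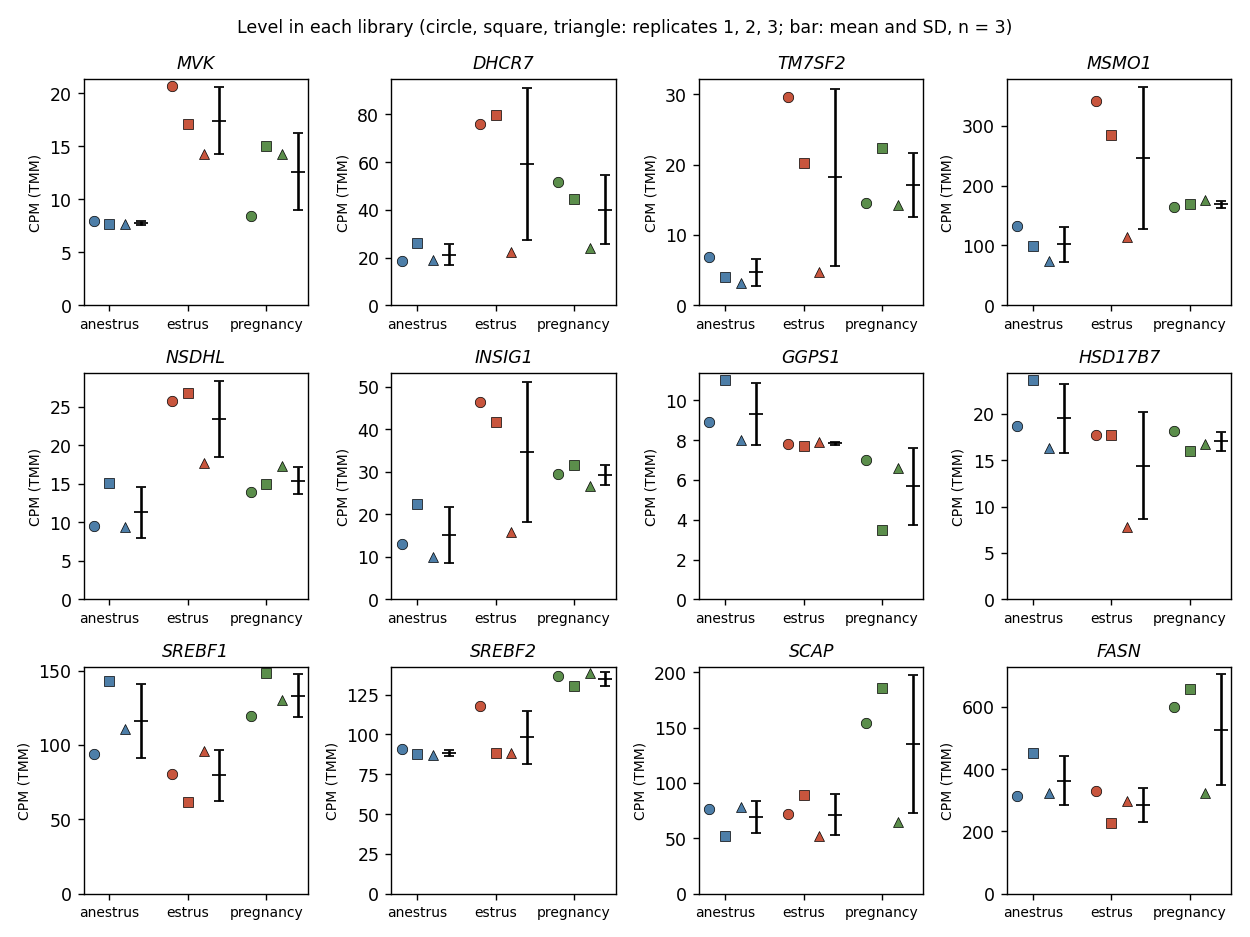
CPM of 12 members in each library, with the mean and SD of 3 libraries beside each stage and symbols for replicates 1 (circle), 2 (square) and 3 (triangle), each axis starting at 0. MVK and NSDHL separate estrus from anestrus, SREBF2 separates pregnancy from both other stages, and the triangle of estrus lies low for DHCR7, TM7SF2, MSMO1 and INSIG1.

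Ranked by stage means, 17 of 28 members followed the order anestrus, pregnancy, estrus from low to high (60.7%), an order found for 14.8% of all tested genes. Among the enzymes 14 of 19 had it (73.7%), and among the squalene and sterol steps 10 of 11. Outside that order, PMVK, MVD, INSIG2, SREBF2 and SCAP were highest in pregnancy and lowest in anestrus. SREBF1, MBTPS1 and FASN were highest in pregnancy and lowest in estrus, which set them apart from the enzymes. Tested over the 3 stages jointly, edgeR called no member (0% of all genes, lowest adjusted p 0.693), and 13 of 28 had an unadjusted p under 0.05 beside 7.16% of all genes. HSD17B7 was highest in anestrus and lowest in estrus, ACAT2 lowest in pregnancy and highest in estrus, and GGPS1 lowest in pregnancy and highest in anestrus. Among the enzymes only GGPS1 and NSDHL had pregnancy libraries that did not overlap with estrus, and by library size alone they overlapped as well. For the other 17 the order of these stages is within the spread of the libraries.

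The SREBP genes stood close to each other in their per-length levels. The ratio of SREBF1 to SREBF2 in FPKM was 1.03, 1.62 and 1.27 in anestrus, 0.682, 0.697 and 1.08 in estrus and 0.871, 1.13 and 0.932 in pregnancy. SREBF1 thus exceeded SREBF2 in all anestrus libraries, and in 1 library of each other stage. The ratio of INSIG1 to INSIG2 was 0.250, 0.772 and 0.269 in anestrus, 0.985, 0.781 and 0.371 in estrus and 0.429, 0.539 and 0.544 in pregnancy, under 1 in every library. HMGCS1 over SREBF2, target over factor, was 1.54, 2.97 and 1.78 in anestrus, 4.69, 5.72 and 2.23 in estrus and 2.39, 2.29 and 1.43 in pregnancy. The ratio was highest in estrus replicates 1 and 2, and the pregnancy mean of 2.04 ± 0.524 was close to the anestrus mean of 2.10 ± 0.770.

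Genes next to the path were read from lists named for their function. Of 14 genes of the fatty acid arm of SREBP targets 13 were tested, and 10 were positive in estrus versus anestrus with a median of 0.42. Of these, 4 had an unadjusted p under 0.05 by edgeR and none passed the adjusted test. Of all 13936 genes tested in this comparison, 49.2% were positive, and 405 were positive with such a p. FADS1, a fatty acid desaturase, had 47.0, 35.8 and 40.9 CPM in anestrus, 113.2, 84.0 and 52.6 CPM in estrus and 78.9, 77.0 and 68.6 CPM in pregnancy, with 1.01 ± 0.26 in estrus versus anestrus. Both later stages lay above anestrus in every library. ACSS2, which makes acetyl-CoA from acetate, was at 0.87 ± 0.32 and SCD, stearoyl-CoA desaturase, at 1.43 ± 0.54. FASN, the member that is fatty acid synthase, was at -0.35 in the same comparison.

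Isoprenoid branches that leave the path before squalene gave a median of -0.16 over 14 genes, with 5 positive and 9 negative and none at an unadjusted p under 0.05. NUS1, of dolichol synthesis, was at -0.42 ± 0.23, COQ2, of ubiquinone synthesis, at 0.48 ± 0.27 and ICMT, which methylates prenylated proteins, at -0.31 ± 0.18. GGPS1 at -0.25 lay on that side as well. Among 16 sterol sensing genes and enzyme partners the median was 0.03 with 9 positive. ERG28, a scaffold of the enzymes that remove sterol methyl groups, had 24.4, 20.4 and 22.3 CPM in anestrus, 48.2, 43.6 and 25.8 CPM in estrus and 40.6, 35.1 and 42.3 CPM in pregnancy. Its log2 fold change was 0.81 ± 0.24 in both later stages against anestrus, with no overlap, as for its partner NSDHL in estrus. MYLIP, a ubiquitin ligase of lipoprotein receptors, was at 0.49 ± 0.27 and RNF145, a sterol-responsive ubiquitin ligase, at -0.22 ± 0.17.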

How the data were processed

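Ribosome footprints of 9 yak ovary libraries were analysed from gene tables. The deposited values are estimated counts per gene, which the submitters' processing notes credit to Bowtie2 and RSEM. Neither tool's version nor the build of the genome is given in the sources used here, and identifiers are those of cattle in Ensembl style. The deposited FPKM divide those counts by gene length and library size, per the file headers and the values. The authors' deposited comparison tables hold a log2 fold change of mean FPKM with a p-value and an FDR, whose test is not stated.

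All 9 libraries were fitted together in edgeR 4.0.16 (R 4.3.3), with filterByExpr as the filter on low counts, TMM normalisation (factors between 0.876 and 1.144), stage as the only term and quasi-likelihood F tests, and with Benjamini-Hochberg adjustment over all 13936 genes tested and a threshold of 0.05. The tested genes took 99.9% of counts, with a biological coefficient of variation of 34.5%. CPM are TMM-normalised, levels carry the SD of the libraries, and log2 fold changes carry the SE of the fit. DESeq2 1.42.0, limma-voom (limma 3.58.1), other scalings and filters, a depth covariate, a replicate block and leaving out libraries were the alternatives. Summaries over the enzymes and the machinery, and overlap by library size alone, were added later.

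All members are named. Of each related pathway list, 3 genes are named, those of lowest unadjusted p between estrus and anestrus. The members and lists were chosen with earlier results of these data known. Same-numbered libraries of different stages correlated at -0.029 to 0.261 in their deviations from the stage means, over 0.1 in 5 of 9 pairs. Differently numbered libraries correlated at -0.268 to 0.139. Because the labels tie no replicate to an animal, the main fit did not pair libraries by number, and the replicate block was kept as an alternative. The intervals of fold changes come from the fit and include the spread between libraries, while the floor of 3 counts covers counting error only. Promoter and protein sequences were not used here.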

Additional observations from a re-analysis of the deposited data

How the results depend on the processing

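Signs of the members' log2 fold changes held over 23 alternatives for 24 of 28 genes (estrus versus anestrus), 19 (pregnancy versus estrus) and 25 (pregnancy versus anestrus). The cause of the differences below was not tested. The median of the 28 ran over 0.32 to 0.86, -0.47 to 0.01 and 0.34 to 0.87, that of the enzymes over 0.50 to 1.14, -0.61 to -0.16 and 0.32 to 0.91, and that of the machinery over 0.04 to 0.27, 0.38 to 0.60 and 0.41 to 0.71, in the same order. Positive enzymes numbered 17 of 19 in each alternative of estrus versus anestrus. Depth limits pregnancy replicate 3 most, and stage and depth are unbalanced.

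In that order DESeq2 called 15, 29 and 30 genes, and 57 over the 3 stages. The authors' deposited table called 31, 23 and 36 genes, with 1 member in the last. With log2 library size as a covariate the median of the members was 0.86 in estrus versus anestrus and 0.87 in pregnancy versus anestrus, that of the enzymes 1.14 and 0.91, and in pregnancy versus estrus 14 members and 5 enzymes were positive.

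The replicate block gave medians of the members of 0.49, -0.14 and 0.45, turned SCAP to -0.03 in estrus versus anestrus and TM7SF2 to 0.12 in pregnancy versus estrus, and changed no call. In estrus versus anestrus SCAP was also at -0.04 by limma-voom and at -0.12 without anestrus replicate 2 and pregnancy replicate 3, and FASN at 0.05 with the depth covariate.

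In pregnancy versus estrus, limma-voom gave MVD -0.03, MBTPS2 0.01 and STARD4 0.12. Library size alone gave SC5D 0.06, MBTPS2 0.06 and STARD4 0.08. The depth covariate gave LSS 0.13, EBP 0.04, INSIG1 0.00, MBTPS2 0.06 and STARD4 0.19. Without anestrus replicate 2 and pregnancy replicate 3, TM7SF2 was at 0.01, MBTPS2 at 0.12 and STARD4 at 0.10. The authors' deposited table had SC5D at 0.06, MBTPS2 at 0.05 and STARD4 at 0.06. In pregnancy versus anestrus, ACAT2 was at 0.23 by limma-voom, 0.01 by upper quartile factors, 0.11 by library size alone, 0.66 with the depth covariate, 0.36 without those libraries and 0.09 in the authors' deposited table, and HSD17B7 at 0.16 with the depth covariate.

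Leaving out 1 library at a time, edgeR called 0 to 2 genes in estrus versus anestrus, the 2 without estrus replicate 3, 0 to 1 in pregnancy versus estrus and 0 to 1 over the 3 stages. In estrus versus anestrus SREBF2 ranged over -0.00 to 0.22, SCAP over -0.15 to 0.23 and MBTPS1 over -0.38 to 0.06. In pregnancy versus estrus 7 to 15 members and 1 to 7 enzymes were positive, and values ranged over -0.34 to 0.27 for MVD, -0.55 to 0.12 for LSS, -0.53 to 0.44 for TM7SF2, -0.06 to 0.41 for HSD17B7, -0.35 to 0.11 for EBP, -0.25 to 0.10 for SC5D, -0.59 to 0.02 for INSIG1, -0.15 to 0.12 for MBTPS2 and -0.29 to 0.14 for STARD4. In pregnancy versus anestrus ACAT2 ranged over -0.15 to 0.19, MBTPS2 over -0.03 to 0.25 and the machinery median over 0.41 to 0.63.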

Other observations

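The lists next to the path were also read in the comparisons with pregnancy. Of 13 tested fatty acid arm genes, 9 were negative against estrus (median -0.15) and 9 positive against anestrus (median 0.47). The sterol sensing genes and enzyme partners had 13 of 16 positive against estrus (median 0.20) and 14 of 16 positive against anestrus (median 0.31), RNF145 standing at 0.42 ± 0.17 (SE) and 0.20 ± 0.17. Isoprenoid branch genes had medians of 0.02 and -0.02. By edgeR none of these genes passed the adjusted test. In pregnancy versus estrus 0, 3 and 0 of the lists' genes, in this order, had a positive value with an unadjusted p under 0.05. Of all 13936 genes tested 590 had such a value there. Positive values made up 50.6% of all genes against estrus and 50.1% against anestrus.

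Cell type lists outside the steroid-making cells gave the following log2 fold changes in estrus versus anestrus. All 8 endothelial markers were negative (median -0.25), as were 5 of 5 B and plasma cell markers (median -1.46), whose sum was 13.2 CPM in estrus replicate 3 beside 115 and 66.5 CPM in the other estrus libraries. Medians were -0.12 for 5 stroma, -0.09 for 5 smooth muscle, 0.12 for 5 macrophage and -0.28 for 8 surface and oviduct epithelium markers. In estrus replicates 1 to 3 the stroma sums were 55400, 68400 and 79800 CPM and the smooth muscle sums 8830, 13300 and 21000 CPM. The macrophage sums were 406, 435 and 845 CPM, so these lists were highest in replicate 3. For the epithelium list, at 229, 486 and 174 CPM, replicate 3 was lowest. Of 8 oocyte markers 3 were tested, and the 8 summed to 19.1 CPM in estrus replicate 1, 11.6 CPM in replicate 2 and 1.35 CPM in replicate 3, where the floor of 3 counts is 0.494 CPM. Their part in the values of the cholesterol genes was not tested.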
